A study of Mus musculus with 12 samples.

Results

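The genes described here are the cytochrome P450 genes of families 1 to 3 in the liver of obese mice after bariatric surgery. A member is a protein-coding gene whose symbol is made of Cyp, a family number from 1 to 3, a subfamily letter and a gene number, after the Ensembl identifiers of the table were matched to mouse gene symbols. The rule gave 58 of the 46078 genes in the table. It leaves out pseudogenes and genes whose symbols carry another letter, such as Cyp3a41a, Cyp3a41b and Cyp2ab1.

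Poly(A) RNA of whole liver was sequenced from 12 mice, 4 in each of 3 groups. All mice were male C57BL/6J (C57BL/6 in the sample labels) with diet-induced obesity, kept on a high-fat diet, and their age was 21 weeks. The Sham-Ad lib mice (libraries 3F, 4F, 6F and 10F) had a sham operation and ate freely. The Sham-WM mice (2F, 9F, 15F and 16F) had the same operation, and their food was then restricted to bring them to the weight of the VSG mice. The VSG mice (1F, 8F, 11F and 18F) had a vertical sleeve gastrectomy, in which most of the stomach is removed. Liver was taken on day 16 after surgery, after 5 h without food. Each library is a separate animal.

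Cytochrome P450 proteins are heme enzymes that add oxygen to small molecules with electrons from P450 oxidoreductase (Por) and cytochrome b5. Families 1 to 3 act on drugs, toxins, steroids, fatty acids and bile acids, and most of the liver's pool is in hepatocytes, in many cases around the central vein. Their genes are known targets of the aryl hydrocarbon receptor (Ahr), the pregnane X receptor (PXR, Nr1i2) and the constitutive androstane receptor (CAR, Nr1i3), many are known to be lower in inflammation, and the growth hormone pattern makes several of them sex-biased in mouse liver.

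Library totals ran from 15122520 counts (11F) to 19384076 counts (9F). A limit of 3 counts, the most that a count of 0 allows, corresponds to between 0.153 and 0.226 per-million counts (CPM) depending on the library, and covers counting error only. Of the 46078 genes, 13054 passed the filter on low counts and were tested, and 22987 had 0 counts in every library. Levels are CPM scaled by TMM factors, and group values are the mean ± SD of 4 libraries. Changes are log2 fold changes with their standard errors (SE) from edgeR, and a gene passed the test where its p-value, adjusted over all 13054 genes, was under 0.05.

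The liver label was checked with 8 hepatocyte markers, of which 8 were tested. Their summed level was 113914 ± 7686 CPM in Sham-Ad lib, 133902 ± 12382 CPM in Sham-WM and 89150.1 ± 20329 CPM in VSG, with Alb the highest in mean CPM. The Y-linked gene Ddx3y lay between 51.6 and 88.7 CPM in the 12 libraries, while Xist was at most 0.815 CPM, as in male liver; the F in the library names does not mark sex. None of 2 tested genes of the pancreas and gut list passed in any comparison (0 by edgeR, 0 at an unadjusted p under 0.05 and 0 by DESeq2 in each), and Cpa1 and Pnlip were at 0 in every library. Of the adipocyte list 2 of 6 were tested, with Lep at 0 in every library.

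Some libraries stand apart. In Sham-Ad lib, the summed level of 24 acute phase genes was 48888 CPM in 4F and 57935 CPM in 10F, against 18583 CPM in 3F and 21816 CPM in 6F. The VSG library 18F had 29709.9 CPM of the same genes, while 1F, 8F and 11F had 106284, 79361 and 89858 CPM. Among the members, 6F had Cyp2b9 and Cyp2b13 levels far above the rest of its group, and 4F had the lowest Cyp2e1. The sequencing sample numbers in the column names run group by group, so a batch that follows them and the groups cannot be told apart. The title of each sample and its description field name different libraries, and by the description field 8 of the 12 libraries would belong to another group. The titles were used, since the columns of the table carry the animal numbers of the titles. With the libraries grouped by the description field, edgeR called 0 of 13054 genes in each comparison, and the counts at an unadjusted p under 0.05 were 465 for VSG and 715 for Sham-WM with Sham-Ad lib as control, and 158 for VSG when set against Sham-WM (DESeq2 was not run with that grouping).

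Of the 58 members, 39 passed the filter on low counts, 11 were below it and 8 had 0 counts in every library. The 8 at 0 were Cyp2b19, Cyp2b23, Cyp2c65, Cyp2c66, Cyp2j7, Cyp2j12, Cyp2j13 and Cyp2w1, so each was below the limit of 3 counts in each library. The 11 below the filter were Cyp2c69, Cyp2d11, Cyp2d12, Cyp2d34, Cyp2j8, Cyp2j11, Cyp2s1, Cyp2t4, Cyp3a16, Cyp3a44 and Cyp3a57, whose sums over the 12 libraries ran from 2 counts (Cyp2d34) to 83 counts (Cyp2s1). By subfamily, 4 of 4 Cyp2a genes, 3 of 5 Cyp2b genes, 12 of 15 Cyp2c genes, 5 of 8 Cyp2d genes, 3 of 8 Cyp2j genes and 4 of 7 Cyp3a genes were tested. Exon length here is the union of all annotated exons of a gene. Compared between genes per kb of exon, the mean over the 12 libraries was 4694 CPM per kb for Cyp2e1, an ethanol and fatty acid oxidase. Next came Cyp2d26 with 566 CPM per kb, Cyp2a5 with 449.8 and Cyp2d10 with 369.8. Cyp2f2 with 342, Cyp2j5 with 321 and Cyp2d9 with 319 were close, and their order differed between the groups. The lowest of the 39 over the 12 libraries was Cyp1b1 with 0.188 CPM per kb. Within groups, Cyp1a1 was lower than Cyp1b1 in Sham-Ad lib (0.172 beside 0.252 CPM per kb). In VSG, Cyp2b10 (0.108), Cyp2b13 (0.157) and Cyp2c40 (0.181) were lower than Cyp1b1 (0.204 CPM per kb).

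**Figure D1:**
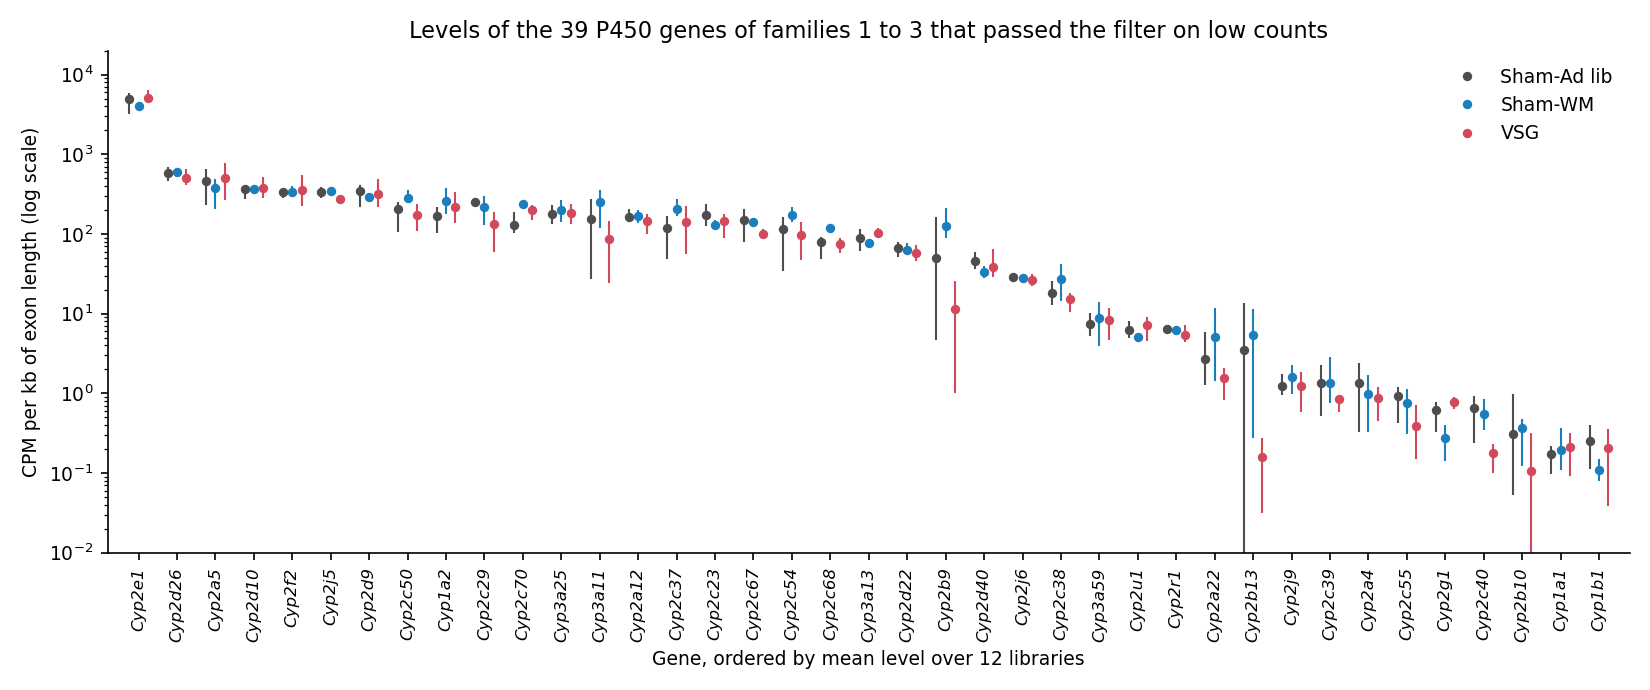
Level of each of the 39 tested members in CPM per kb of exon length (log axis), by group. Points are group means and lines run from the lowest to the highest of the 4 libraries; values of 0 (Cyp2b13 in 10F, Cyp2b10 in 8F) run to the bottom of the axis at 0.01. Cyp2e1 stands highest, and the longest lines belong to the Cyp2b genes.

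Members varied more between mice of a group than genes did in general. The median within-group SD of log2 CPM was 0.46 over the 39 tested members, from 0.15 for Cyp2j5 to 2.43 for Cyp2b13, and 0.26 over all 13054 tested genes. The summed level of all members was 21546 ± 4005 CPM in Sham-Ad lib, 20676 ± 2158 CPM in Sham-WM and 20779 ± 4480.0 CPM in VSG, which differ by less than the SD. Without Cyp2e1 the sums were 10849 ± 1738 CPM, 12009.7 ± 1322 CPM and 9752 ± 2599 CPM.

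The comparisons of VSG and of Sham-WM with Sham-Ad lib ask what surgery and what food restriction change, and both use the same 4 control libraries. VSG against Sham-WM sets surgery beside food restriction at matched weight. Food was restricted in Sham-WM only, so effects of surgery and of food restriction cannot be told apart in it. In VSG against Sham-Ad lib, 0 of 39 members passed by edgeR, beside 0.751% of all tested genes. There 7 members had an unadjusted p under 0.05 (17.9%, beside 24.1% of all genes), DESeq2 called 3 of 38 (7.89%, beside 9.21%), namely Cyp2c29, Cyp2c40 and Cyp2c70, and 2 members (5.13%, beside 9.21%) had values that did not overlap between the groups. The number of all genes called in this comparison depended on single libraries. It was 98 with all libraries. Leaving out 18F gave 1089, leaving out 4F gave 903, 8F gave 227, 11F gave 69, and any other library gave at most 3.

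In Sham-WM against Sham-Ad lib, 1 of 39 members passed (2.56%), beside 6.99% of all tested genes, and 2 members (5.13%) did not overlap, beside 17.6% of all. In VSG against Sham-WM, 6 of 39 members passed (15.4%), beside 26.9% of all genes. Of these 1 was higher in VSG (2.56%, beside 15.0% of all genes) and 5 were lower (12.8%, beside 11.9%). Values did not overlap for 9 members (23.1%), beside 26.2% of all genes, with 2 higher (Cyp2g1 and Cyp3a13) and 7 lower (Cyp2b9, Cyp2b13, Cyp2c40, Cyp2c50, Cyp2c67, Cyp2c68 and Cyp2j5), beside 1873 higher and 1547 lower of the 13054 genes. With 2 RUVr factors, which model variation left in the residuals, edgeR called more members and more genes. The members were then 4 for VSG against Sham-Ad lib (10.3%, beside 23.1% of all genes), namely Cyp2b9, Cyp2c29, Cyp2c40 and Cyp2c70. They were 8 for Sham-WM against Sham-Ad lib (20.5%, beside 16.8%), namely Cyp1a2, Cyp2b9, Cyp2c37, Cyp2c50, Cyp2c54, Cyp2c68, Cyp2c70 and Cyp2d40. For VSG against Sham-WM they were 13 (33.3%, beside 42.1%), the 6 that passed before and Cyp2a22, Cyp2c29, Cyp2c50, Cyp2c54, Cyp2d26, Cyp2e1 and Cyp2u1. The share of members called was above that of all genes with these factors in Sham-WM against Sham-Ad lib, and below it with the processing used.

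The median log2 fold change of the 39 members was -0.22 in VSG against Sham-Ad lib (13 positive, 26 negative), 0.0053 in Sham-WM against Sham-Ad lib (21 positive, 18 negative), then -0.24 for VSG against Sham-WM (12 positive, 27 negative). The medians over all tested genes were 0.028, 0.00079 and 0.028. Leaving out 1 library at a time moved the members' median in VSG against Sham-Ad lib between -0.33 (without 11F) and -0.07 (without 6F), and in VSG against Sham-WM between -0.36 (without 11F) and -0.14 (without 1F). For Sham-WM against Sham-Ad lib its sign changed with the library left out and with the scaling, where values stayed near 0. The 25 tested P450 genes of other families (of 38) had medians of -0.16, -0.05 and -0.12. In VSG against Sham-Ad lib 0 of these passed (6 at an unadjusted p under 0.05 by edgeR, 2 by DESeq2). In Sham-WM against Sham-Ad lib 3 were higher (beside 3.53% of all genes) and 1 lower (beside 3.45%). In VSG against Sham-WM 5 were higher (beside 15.0%) and 5 lower (beside 11.9%). These samples are bulk liver, in which fewer cells of a type and less RNA per cell cannot be told apart.

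**Figure D2:**
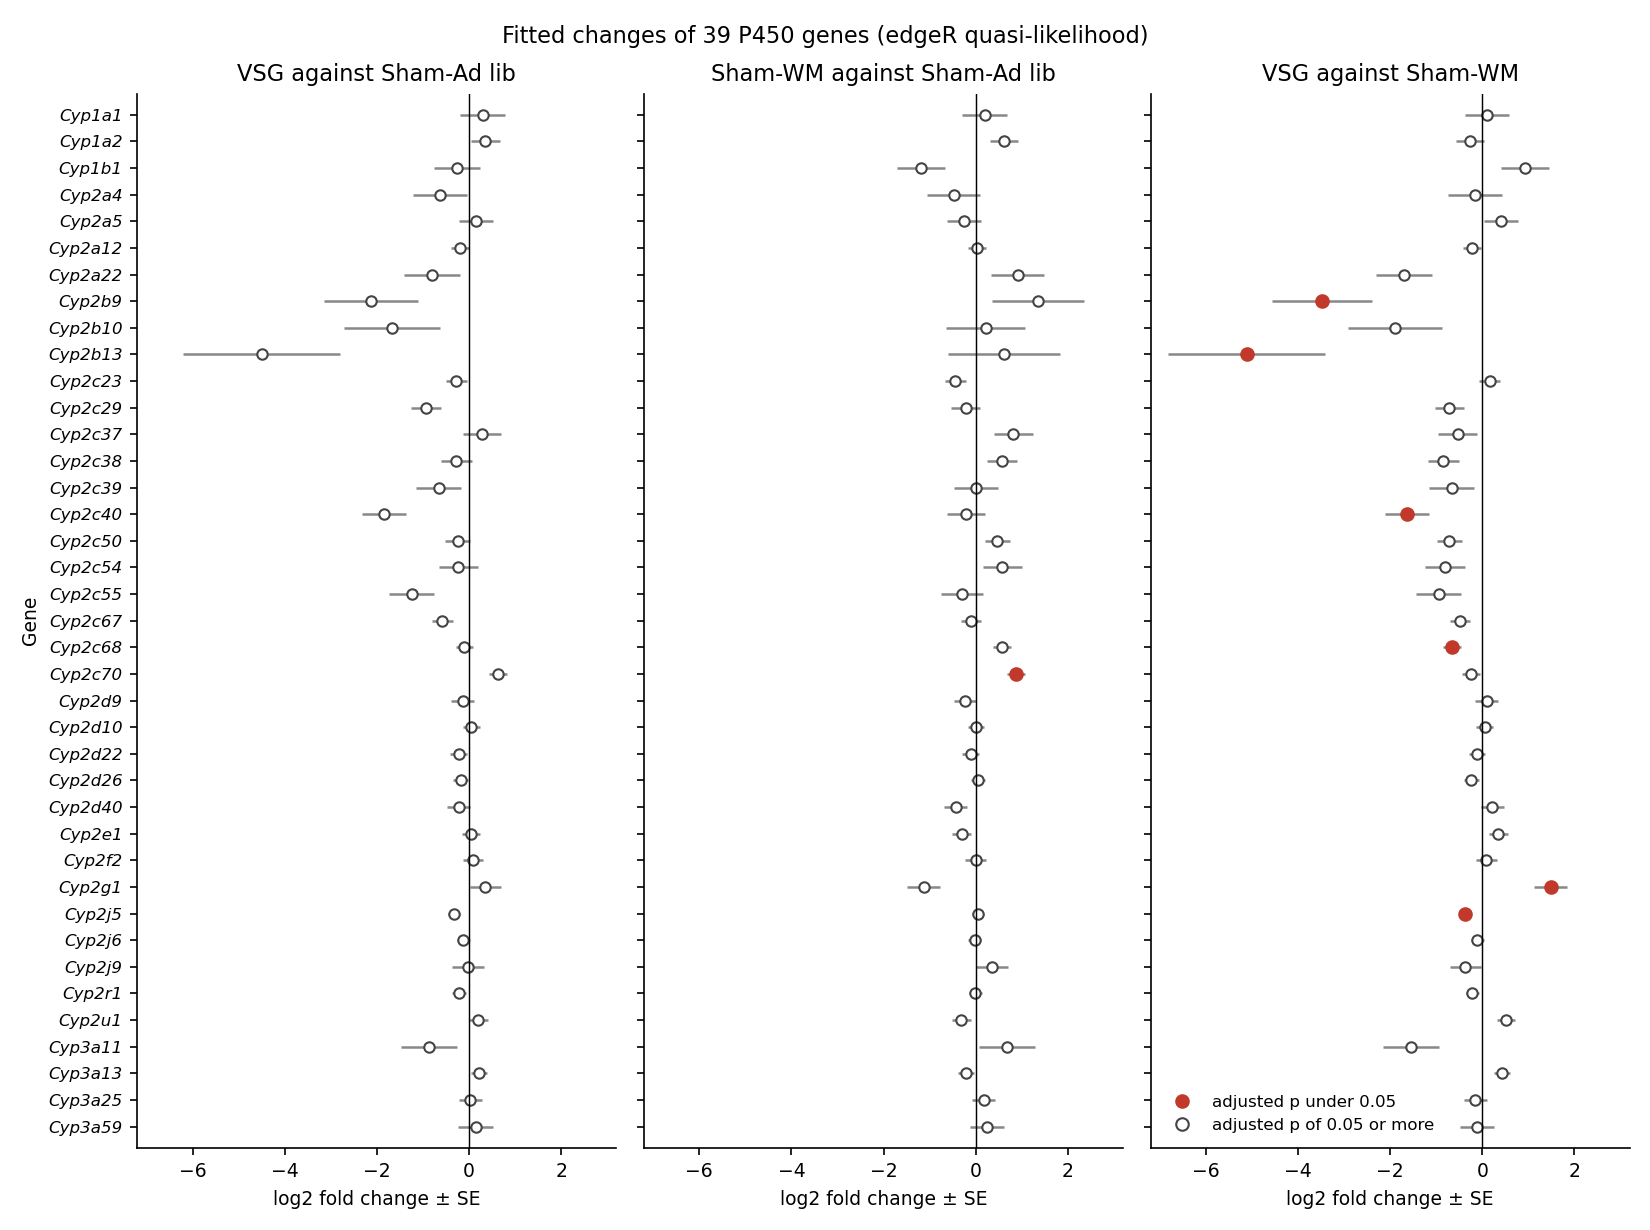
Log2 fold change of each tested member in the 3 comparisons, with lines of 1 SE on each side and filled points for those that passed the adjusted threshold of 0.05 (edgeR). The Cyp2b genes lie far below 0 in both comparisons of VSG (in that with Sham-Ad lib the position rests on library 6F, without which their median was 0.10), and most Cyp2c genes lie below 0 in VSG against Sham-WM.

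The subfamilies differed in their medians, and the sign of each median given here was the same with TMM, upper quartile and DESeq2 scaling. For the 3 tested Cyp2b genes the median log2 fold change was -2.13 in VSG against Sham-Ad lib, 0.61 in Sham-WM against the same controls, then -3.48 for VSG against Sham-WM. For the 12 Cyp2c genes it was -0.28, 0.24 and -0.69, with 11 of 12 negative in the last. The Cyp2b value in VSG against Sham-Ad lib rested on 6F, and without that library it was 0.10 (Cyp2b9 -0.07, Cyp2b10 0.10, Cyp2b13 0.58), while in VSG against Sham-WM it lay between -4.27 and -3.10 with each library left out. The Cyp2b value in Sham-WM against Sham-Ad lib was 3.41 without 6F and 0.18 without 16F. Over the same fits the Cyp2c medians ran from -0.50 (without 4F) to -0.22 (8F), from 0.10 (4F) to 0.48 (6F) and from -0.87 (18F) to -0.53 (16F). The 4 Cyp2a genes had -0.41, -0.12 and -0.19, the 5 Cyp2d genes -0.18, -0.11 and 0.05, and the 4 Cyp3a genes 0.08, 0.21 and -0.13. With 1 library left out the sign of the Cyp2a median changed in Sham-WM against Sham-Ad lib, that of the Cyp2d median in VSG against Sham-WM, and that of the Cyp3a median in both comparisons of VSG. The Cyp2a median ran from -0.60 (without 10F) to -0.09 (6F) in VSG against Sham-Ad lib. In VSG against Sham-WM it ran from -0.35 (9F) to -0.01 (1F). The Cyp2d median ran from -0.36 (11F) to -0.09 (1F) in VSG against Sham-Ad lib. In Sham-WM against Sham-Ad lib it ran from -0.22 (4F) to -0.02 (6F), and the Cyp3a median from 0.02 (16F) to 0.41 (9F). Differences between subfamilies were not tested.

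**Figure D3:**
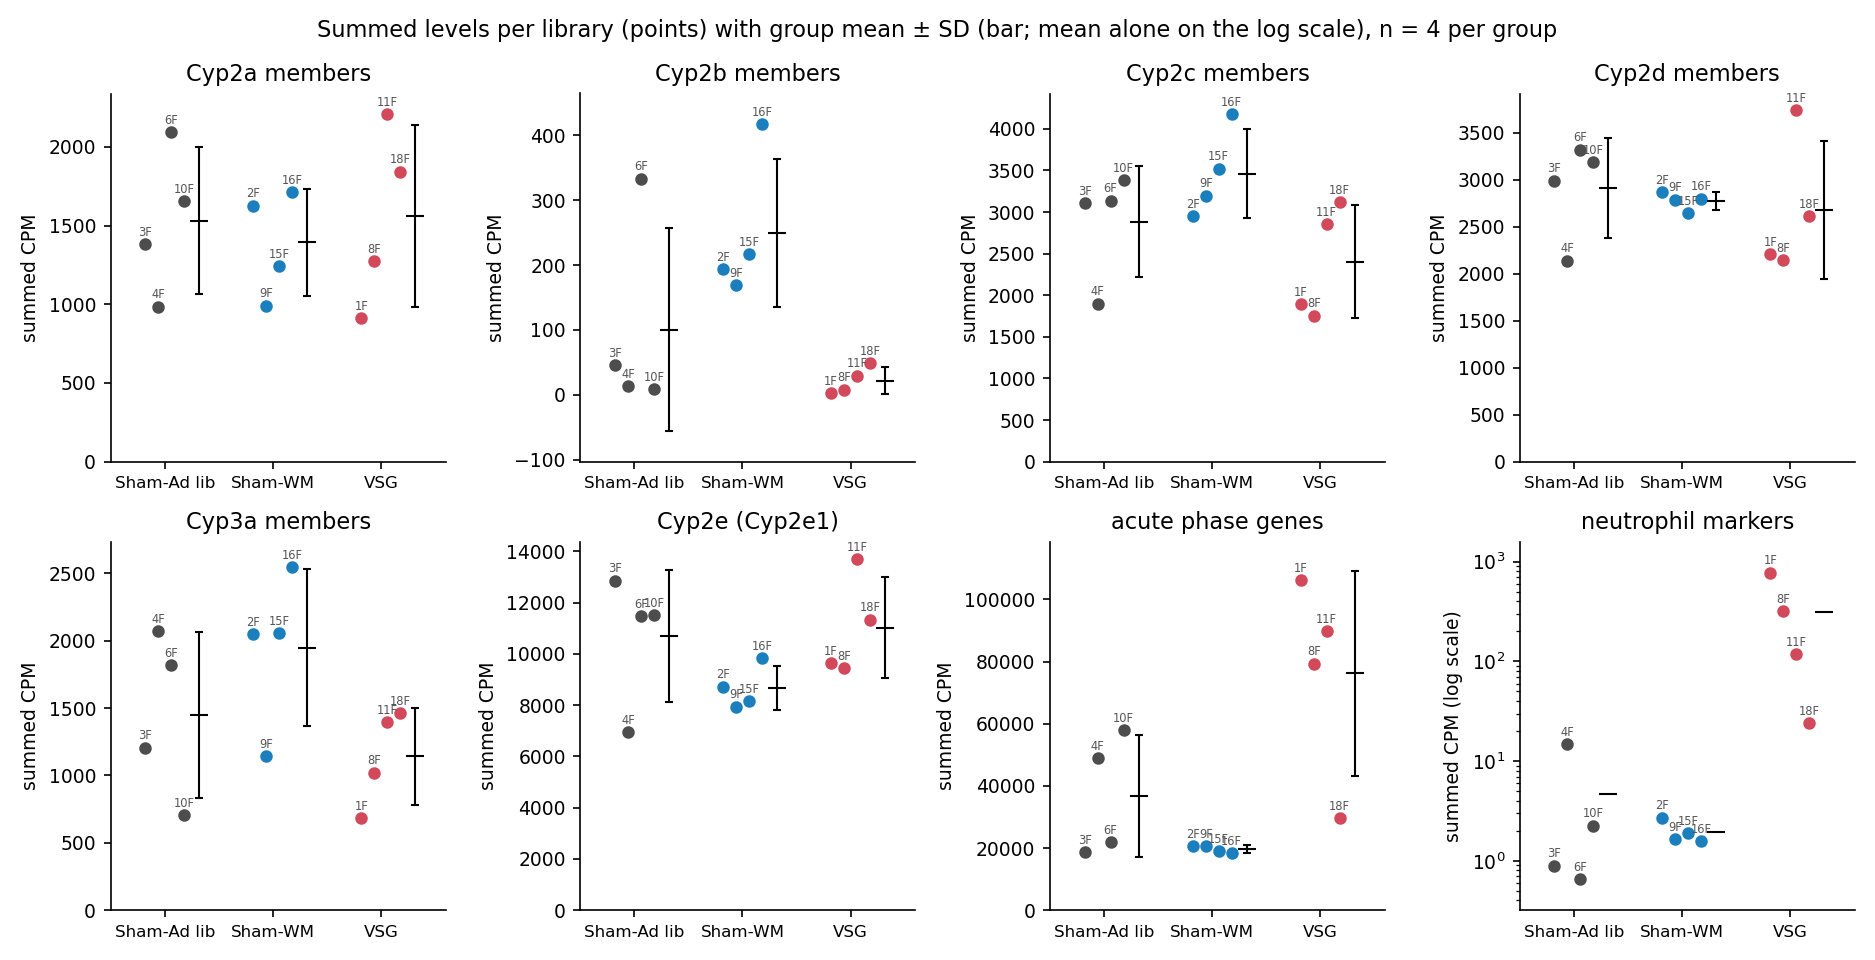
Summed CPM of the members of subfamilies Cyp2a, Cyp2b, Cyp2c, Cyp2d, Cyp3a and Cyp2e, of the acute phase genes and of the neutrophil markers in each of the 12 libraries (points), with the group mean ± SD (bars); the neutrophil axis is a log axis and shows the mean alone. The Cyp2b sums of the 4 Sham-WM libraries lie above those of the 4 VSG libraries, while the Cyp2a and Cyp2d sums overlap in all groups.

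The Cyp2b genes code for enzymes of drug and steroid oxidation, and Cyp2b10 is the classical target of CAR. Cyp2b9 and Cyp2b13 are known as higher in female liver. Cyp2b9 (ENSMUSG00000040660, mm10 chr7:26173411-26210661, + strand) had 45.4, 12.8, 305 and 8.78 CPM in the Sham-Ad lib libraries 3F, 4F, 6F and 10F. In the Sham-WM libraries 2F, 9F, 15F and 16F it had 185, 168, 205 and 395 CPM, and in the VSG libraries 1F, 8F, 11F and 18F 1.91, 7.56, 28.2 and 47.8 CPM. Every Sham-WM library was above every VSG library, while Sham-Ad lib overlapped both groups, with 6F high and the other libraries in the range of VSG. The means were 93.1 ± 142 CPM in Sham-Ad lib, 238 ± 105.6 CPM in Sham-WM and 21.4 ± 20.9 CPM in VSG. Cyp2b9 was 11.2-fold lower in VSG than in Sham-WM (log2 fold change -3.48, SE 1.08, adjusted p 0.0313). It did not pass in VSG against Sham-Ad lib (-2.13, SE 1.03, adjusted p 0.225) or in Sham-WM against Sham-Ad lib (1.35, SE 0.99, adjusted p 0.473) with the processing used. With 2 RUVr factors it passed in both (-2.17, adjusted p 0.0431, and 2.09, adjusted p 0.0498). Without 6F the value in VSG against Sham-Ad lib was -0.07. The call in VSG against Sham-WM was made in 7 of 12 fits that left out 1 library, with an adjusted p of 0.00959 without 6F. It was lost without 15F (adjusted p 0.0546), 16F (0.0748), 11F (0.0557), 1F (0.0664) or 8F (0.0657), with log2 fold changes from -4.27 to -3.10 over the 12 fits. DESeq2 gave it no adjusted p and a log2 fold change of -3.51.

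Cyp2b13 (ENSMUSG00000040583, chr7:26061497-26096197, + strand) is a near copy of Cyp2b9. It had 4, 6, 477 and 0 counts in Sham-Ad lib (3F, 4F, 6F, 10F), 154, 10, 215 and 377 counts in Sham-WM (2F, 9F, 15F, 16F) and 1, 3, 6 and 9 counts in VSG (1F, 8F, 11F, 18F). Library 6F again stood alone in its group, 10F was at 0, which is below 0.188 CPM at this depth, and 9F was low in Sham-WM. On the CPM scale the groups Sham-WM and VSG were barely apart, with 0.512 CPM both in 9F and in 18F. The means were 6.59 ± 12.8 CPM, 10.1 ± 8.59 CPM and 0.294 ± 0.221 CPM. The change in VSG against Sham-WM was 34.6-fold lower (log2 fold change -5.11, SE 1.70, adjusted p 0.0408), the lowest fitted value of all 13054 genes in that comparison. In VSG against Sham-Ad lib it was -4.50 (SE 1.71, adjusted p 0.138), also the lowest of all genes, and rested on 6F. For Sham-WM against Sham-Ad lib it was 0.61 (SE 1.22, adjusted p 0.831), and without 6F it was 5.69 (adjusted p 0.0175). The call in VSG against Sham-WM was made in 5 of 12 fits that left out 1 library (adjusted p 0.00373 without 6F). It was lost without 15F (adjusted p 0.0718), 16F (0.0974), 2F (0.0563), 11F (0.0753), 18F (0.0612), 1F (0.0981) or 8F (0.0821).

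Reads of Cyp2b9 and Cyp2b13 can be mistaken for one another in part. Of the 100-base windows of its transcripts, Cyp2b9 shared 1.18% with other genes (Cyp2b13 and Gm45225). Cyp2b13 shared 9.29%, more of them with Gm45225 than with Cyp2b9, so the level of Cyp2b13 is the less certain of the pair. How reads that match several places were counted, and on which strand, is not given in the sources used here. The promoters of Cyp2b9, Cyp2b13 and Cyp2b10 are shown because both genes that passed come from neighbouring copies. They are RefSeq sequences of build GRCm38.p6, 250 bases before to 50 after the gene start, 5′ to 3′, at chr7:26173159-26173458, chr7:26061245-26061544 and chr7:25897408-25897707, each on the + strand. Capitals mark AGGTCA and AGTTCA (each part of nuclear receptor sites), GCGTG (the core of the Ahr site) and TTCNNNGAA (the STAT5 site), searched on both strands.
Cyp2b9: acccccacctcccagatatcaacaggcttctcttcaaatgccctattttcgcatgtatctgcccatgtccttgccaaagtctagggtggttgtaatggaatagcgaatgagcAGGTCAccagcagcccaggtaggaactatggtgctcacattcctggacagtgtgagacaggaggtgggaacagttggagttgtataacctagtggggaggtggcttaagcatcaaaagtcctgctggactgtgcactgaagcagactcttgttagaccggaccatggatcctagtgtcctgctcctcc
Cyp2b13: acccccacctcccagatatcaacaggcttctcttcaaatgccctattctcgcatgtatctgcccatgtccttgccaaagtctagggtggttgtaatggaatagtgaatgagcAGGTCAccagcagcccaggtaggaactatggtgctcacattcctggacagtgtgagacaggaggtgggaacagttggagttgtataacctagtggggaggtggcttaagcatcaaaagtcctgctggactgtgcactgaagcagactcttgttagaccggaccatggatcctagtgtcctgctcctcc
Cyp2b10: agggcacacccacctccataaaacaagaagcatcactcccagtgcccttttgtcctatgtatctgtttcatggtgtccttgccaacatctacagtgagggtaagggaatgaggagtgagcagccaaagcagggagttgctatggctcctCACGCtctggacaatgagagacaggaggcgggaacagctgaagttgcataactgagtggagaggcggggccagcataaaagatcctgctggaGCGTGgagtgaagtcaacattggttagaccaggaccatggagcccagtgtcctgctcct
Cyp2b9 and Cyp2b13 were identical at 298 of 300 bases (99.3%). Counted from 1 at the first base shown, with the Cyp2b9 base first, the differences were T48C and C104T. Both had AGGTCA 138 bases before the gene start and none of the other motifs. Cyp2b10 had GCGTG at bases 242 to 246 and, on the other strand, at 150 to 154.

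Cyp2b10 itself had a log2 fold change of -1.67 (SE 1.03, adjusted p 0.336) in VSG against Sham-Ad lib, 0.22 (SE 0.86, adjusted p 0.922) in Sham-WM against those controls, and -1.89 (SE 1.02, adjusted p 0.18) in VSG when set against Sham-WM. It did not pass in any of these, and without 6F the first value was 0.10 (adjusted p 0.966). The remaining Cyp2b genes, Cyp2b19 and Cyp2b23, were at 0. The summed Cyp2b level was 100.3 ± 156 CPM in Sham-Ad lib, 249 ± 113.7 CPM in Sham-WM and 21.9 ± 21.3 CPM in VSG, of which Cyp2b9 made up most.

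**Figure D4:**
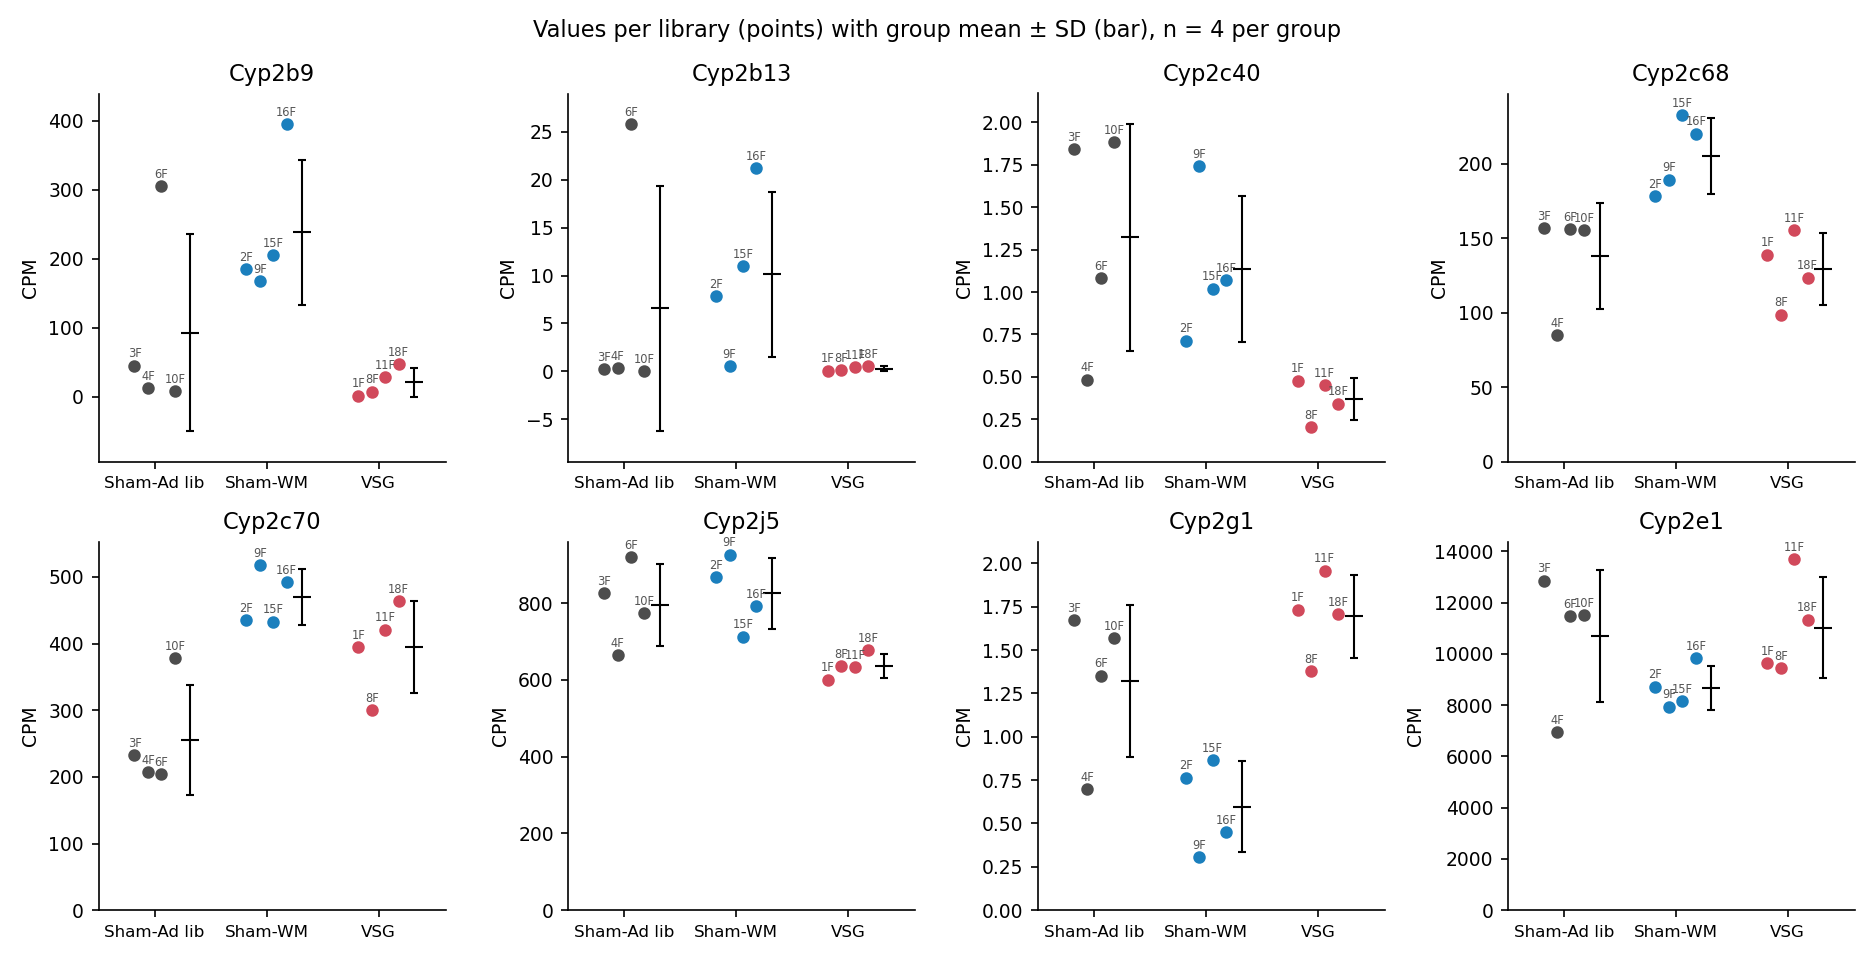
CPM of the 7 members that passed the test in a comparison and of Cyp2e1, in each library (points) by group, with the group mean ± SD (bars) on linear axes. Cyp2b9 in Sham-WM lies between 168 and 395 CPM, above all VSG libraries (1.91 to 47.8 CPM), with library 6F of Sham-Ad lib at 305 CPM.

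The Cyp2c genes, known for the oxidation of drugs, fatty acids and steroids, held the only member that passed in Sham-WM against Sham-Ad lib. That was Cyp2c70, the enzyme that makes muricholic bile acids in mice (ENSMUSG00000060613, chr19:40153353-40187333, - strand). Its levels were 233, 207, 204 and 378 CPM in Sham-Ad lib (3F, 4F, 6F, 10F), 435, 518, 433 and 492 CPM in Sham-WM (2F, 9F, 15F, 16F) and 394, 300.5, 421 and 463 CPM in VSG (1F, 8F, 11F, 18F). All 4 Sham-WM libraries were above all 4 Sham-Ad lib libraries, of which 10F was the highest by a wide gap, and VSG overlapped both. The means were 256 ± 82.7 CPM, 469 ± 42.2 CPM and 395 ± 69.0 CPM. Cyp2c70 was 1.84-fold higher in Sham-WM than in Sham-Ad lib (log2 fold change 0.88, SE 0.20, adjusted p 0.0181). In VSG against the same controls it was 0.63 (SE 0.20, adjusted p 0.0915), and in VSG against Sham-WM -0.25 (SE 0.20, adjusted p 0.357). The Sham-WM call was made in 8 of 12 fits that left out 1 library, and lost without 3F (adjusted p 0.0557), 4F (0.0512), 6F (0.0575) or 16F (0.0552), with log2 fold changes from 0.78 to 1.12. No 100-base window of Cyp2c70 was shared with another gene. Its promoter is shown since it is the member that passed with food restriction (RefSeq, GRCm38.p6, chr19:40187237-40187536, - strand, capitals as before), and it had AGGTCA at bases 177 to 182.
Cyp2c70: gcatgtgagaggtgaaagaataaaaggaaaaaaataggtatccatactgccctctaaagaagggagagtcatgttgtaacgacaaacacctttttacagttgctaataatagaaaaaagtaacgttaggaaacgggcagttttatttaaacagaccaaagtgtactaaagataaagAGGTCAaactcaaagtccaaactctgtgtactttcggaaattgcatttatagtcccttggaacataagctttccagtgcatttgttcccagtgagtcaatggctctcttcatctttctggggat

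Cyp2c68 (ENSMUSG00000074882, chr19:39688834-39741054, - strand) had 157, 84.8, 156 and 156 CPM in Sham-Ad lib, 178, 189, 232 and 220.2 CPM in Sham-WM and 139, 98.8, 156 and 124 CPM in VSG, in the same order of libraries. The Sham-WM libraries were above all others, and 4F was low in Sham-Ad lib. The means were 138 ± 35.7 CPM, 205 ± 25.4 CPM and 129 ± 24.1 CPM. It was 1.59-fold lower in VSG than in Sham-WM (log2 fold change -0.67, SE 0.20, adjusted p 0.0247), a call made in 9 of 12 fits that left out 1 library and lost without 15F (adjusted p 0.0684), 16F (0.0628) or 8F (0.0517). Against Sham-Ad lib it did not pass in VSG (-0.10, adjusted p 0.784) or in Sham-WM (0.57, adjusted p 0.10). With libraries mapped by the description field the change in VSG against Sham-WM was 0.18 for Cyp2c68, and that of Cyp2c70 in Sham-WM against Sham-Ad lib was -0.49, so both directions reversed.

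Cyp2c40 (ENSMUSG00000025004, chr19:39767071-39812814, - strand), known as higher in female liver, had few counts. There were 33, 9, 20 and 30 in Sham-Ad lib, 14, 34, 20 and 19 in Sham-WM and 8, 4, 6 and 6 in VSG. All VSG libraries were below all libraries of both sham groups, by a narrow margin against 4F (0.483 CPM, beside 0.478 CPM in 1F). The means were 1.32 ± 0.67 CPM, 1.14 ± 0.433 CPM and 0.369 ± 0.125 CPM. In VSG it was 3.10-fold lower than in Sham-WM (log2 fold change -1.63, SE 0.47, adjusted p 0.0244), in 10 of 12 fits that left out 1 library, and the call was lost without 9F (adjusted p 0.0679) or 8F (0.0583). Against Sham-Ad lib the value was -1.84 (SE 0.47, adjusted p 0.0636), called by DESeq2 (adjusted p 0.0106) and by edgeR without 4F (adjusted p 0.0105). Cyp2c40 shared 34.4% of its 100-base windows with other genes, among them Cyp2c67, Cyp2c68 and Cyp2c69, and Cyp2c68 shared 19.8%, so the counts of Cyp2c40 in particular are uncertain.

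Cyp2c50 had the highest mean of the Cyp2c genes over the 12 libraries (648 CPM, 222 CPM per kb), though Cyp2c29 was higher in Sham-Ad lib (251 beside 206 CPM per kb) and Cyp2c70 in VSG (199 beside 174 CPM per kb). Cyp2c50 had 726, 313, 734 and 637 CPM in Sham-Ad lib, 721, 831, 752 and 1037 CPM in Sham-WM and 444, 318, 569 and 699.9 CPM in VSG. The VSG libraries were below all Sham-WM libraries, and 4F was low in Sham-Ad lib. It did not pass in VSG against Sham-WM (-0.72, SE 0.27, adjusted p 0.0674) by edgeR, and did by DESeq2 (adjusted p 0.0274), as did Cyp2c38 (adjusted p 0.0337). Without 4F the adjusted p of Cyp2c67 in VSG against Sham-Ad lib was 0.00938, against 0.143 with all libraries. The summed Cyp2c level was 2882 ± 666 CPM in Sham-Ad lib, 3463 ± 532 CPM in Sham-WM and 2404 ± 683 CPM in VSG, and the sums of the groups overlapped. In VSG against Sham-WM, leaving out 1 library brought in Cyp2c50 (adjusted p 0.0277 without 4F and 0.0300 without 18F), Cyp2c38 (0.0321 without 2F and 0.0485 without 9F), Cyp2c67 (0.0235 without 4F), Cyp2r1 (0.0489 without 11F) and, as higher in VSG, Cyp2u1 (0.0173 without 1F).

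Cyp2j5, an arachidonic acid epoxygenase (ENSMUSG00000052520, chr4:96628773-96664154, - strand), had the smallest change of those that passed. Its levels were 827, 664, 919.6 and 774 CPM in Sham-Ad lib, 869, 927, 713 and 793 CPM in Sham-WM and 601, 636, 633 and 678 CPM in VSG. The VSG libraries were close together and below all Sham-WM libraries, and overlapped only 4F of Sham-Ad lib. The means were 796 ± 106.7 CPM, 825 ± 92.8 CPM and 637 ± 31.4 CPM. It was 1.30-fold lower in VSG than in Sham-WM (log2 fold change -0.37, SE 0.13, adjusted p 0.0481), and -0.32 (SE 0.13, adjusted p 0.159) in VSG against Sham-Ad lib. The call was made in 3 of 12 fits that left out 1 library. It was lost without 10F (adjusted p 0.0533), 3F (0.0619), 16F (0.0815), 2F (0.0999), 9F (0.118), 11F (0.0732), 18F (0.0516), 1F (0.107) or 8F (0.0668). The other tested Cyp2j genes, Cyp2j6 and Cyp2j9, had -0.11 (adjusted p 0.591) and -0.37 (adjusted p 0.449) in VSG against Sham-WM.

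Cyp2g1, known mainly from olfactory tissue and as female-biased in liver (ENSMUSG00000049685, chr7:26808892-26821205, + strand), was the only member that passed as higher in VSG than in Sham-WM. It had 30, 13, 25 and 25 counts in Sham-Ad lib, 15, 6, 17 and 8 counts in Sham-WM and 29, 27, 26 and 30 counts in VSG. The VSG libraries lay within 1.38 to 1.96 CPM, above all Sham-WM libraries (0.307 to 0.867 CPM), while Sham-Ad lib overlapped both, with 4F (0.698 CPM) in the range of Sham-WM. The means were 1.32 ± 0.438 CPM, 0.597 ± 0.262 CPM and 1.69 ± 0.239 CPM. It was 2.80-fold higher in VSG than in Sham-WM (log2 fold change 1.48, SE 0.36, adjusted p 0.0102), and this call was made in all 12 fits that left out 1 library, with adjusted p-values from 0.00599 to 0.0361. In Sham-WM against Sham-Ad lib the value was -1.13 (SE 0.36, adjusted p 0.0787), which passed by DESeq2 (adjusted p 0.0401) and by edgeR without 4F (adjusted p 0.0409). The sum of its counts is small, and 1.17% of its 100-base windows were shared.

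The Cyp2a genes include Cyp2a5, a coumarin hydroxylase. Cyp2a5 had 870.5, 476, 1362 and 1086 CPM in Sham-Ad lib, 1020.4, 427, 749.5 and 979.8 CPM in Sham-WM and 558, 830.1, 1609 and 1220.3 CPM in VSG. The groups overlapped throughout, with 11F and 6F high and 9F and 4F low. The change in VSG against Sham-WM was 0.41 (SE 0.37, adjusted p 0.428). Of the 4 Cyp2a genes 0 passed in each comparison by edgeR. At an unadjusted p under 0.05 there was 1, Cyp2a22 in VSG against Sham-WM (-1.71, SE 0.61, adjusted p 0.0516), which DESeq2 called (adjusted p 0.0369); DESeq2 called no other. By edgeR Cyp2a22 passed without 10F (adjusted p 0.0490), 6F (0.0335) or 9F (0.0250), and in no other fit that left out 1 library. Without 16F, which had 41.1 CPM beside 4.92 to 12.6 CPM in the rest of Sham-WM, its value was -0.88 (adjusted p 0.244). The summed Cyp2a level was 1530.0 ± 467 CPM, 1393 ± 338 CPM and 1560 ± 579 CPM, in the same order of groups.

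Of the Cyp2d genes, whose human relative oxidises many basic drugs, 5 were tested. Cyp2d26, the highest of them, had 1043, 835, 1235 and 1052 CPM in Sham-Ad lib, 1124, 1066, 1020.3 and 1115 CPM in Sham-WM and 738, 859, 1174 and 902 CPM in VSG. The groups overlapped, and the Sham-WM libraries were close together. Its change was -0.24 (SE 0.16, adjusted p 0.283) in VSG against Sham-WM. In each comparison 0 of the 5 tested Cyp2d genes passed by edgeR, 0 had an unadjusted p under 0.05 and DESeq2 called 0. With 2 RUVr factors edgeR called Cyp2d26 in VSG against Sham-WM (-0.26, adjusted p 0.0371) and Cyp2d40 in Sham-WM against Sham-Ad lib (-0.43, adjusted p 0.0131). The log2 fold changes of the processing used over the 5 genes and 3 comparisons lay between -0.44 and 0.22. The summed level was 2910.5 ± 531 CPM, 2775 ± 93.7 CPM and 2677 ± 738 CPM.

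Cyp3a genes code for steroid, bile acid and drug hydroxylases under PXR. Cyp3a11 had the highest mean CPM of them over the 12 libraries, while per kb of exon Cyp3a25 was higher (188 beside 165 CPM per kb). In Sham-WM that order was the other way, with 202 CPM per kb for Cyp3a25 and 252 for Cyp3a11. The order per kb depends on the exon lengths used, 2083 bases for Cyp3a25 and 5093 for Cyp3a11, each a union of annotated exons. Cyp3a11 had 573, 1416, 1066 and 138 CPM in Sham-Ad lib, 1490.1, 612, 1230.1 and 1798 CPM in Sham-WM and 125, 352, 522 and 752 CPM in VSG. Levels ranged widely in all groups, 10F and 1F were lowest, and 9F of Sham-WM was below 18F of VSG. The means were 798 ± 560 CPM, 1282 ± 504 CPM and 438 ± 265 CPM, and the log2 fold change in VSG against Sham-WM was -1.55 (SE 0.62, adjusted p 0.0772). It passed without 10F (adjusted p 0.0310) or 18F (0.0457) and in no other fit that left out 1 library. Of the 4 tested Cyp3a genes 0 passed in each comparison by edgeR and 0 by DESeq2, and at an unadjusted p under 0.05 there were 2, both in VSG against Sham-WM (Cyp3a11 and Cyp3a13). Cyp3a13 went the other way, with 0.43 (SE 0.18, adjusted p 0.0887) and values that did not overlap. The summed Cyp3a level was 1450.0 ± 615 CPM, 1949.9 ± 585 CPM and 1141 ± 361 CPM.

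Cyp2e1 had 12859, 6951, 11464 and 11514 CPM in Sham-Ad lib, 8715, 7944, 8167 and 9840.3 CPM in Sham-WM and 9649, 9431, 13691 and 11340.0 CPM in VSG. It was lowest in 4F, and the Sham-WM libraries lay below most others without being apart from them. Its log2 fold changes of 0.04 (adjusted p 0.912), -0.30 (adjusted p 0.436) and 0.35 (adjusted p 0.221), in the order of comparisons used above, did not pass by edgeR or DESeq2. The last passed with 2 RUVr factors (0.33, adjusted p 0.0487).

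Cyp1a2, a hepatic oxidase of aromatic amines and caffeine and a target of Ahr, had 354, 210.3, 367 and 444 CPM in Sham-Ad lib, 541, 754, 359 and 453 CPM in Sham-WM and 279.9, 309, 686 and 485 CPM in VSG. The groups overlapped, and 4F was lowest. Its changes were 0.36 (adjusted p 0.492), 0.62 (adjusted p 0.269) and -0.26 (adjusted p 0.553) in the same order of comparisons. Cyp2f2, a lung and periportal liver enzyme of naphthalene oxidation, had 637, 570.3, 771 and 734 CPM in Sham-Ad lib, 595, 589, 717 and 809.6 CPM in Sham-WM and 459, 631, 681 and 1105.0 CPM in VSG. Here VSG had both the lowest library (1F) and the highest (18F), and the changes were 0.08, -0.00108 and 0.09 (adjusted p 0.844, 0.998 and 0.802). An antisense gene, Gm15883, overlaps Cyp2f2 and had a mean of 70.7 counts beside 12344.

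Most members sit in clusters of neighbouring copies in mm10. The 14 Cyp2c genes on chr19:39007019-40187333, of which 11 were tested, hold Cyp2c40 and Cyp2c68, which passed in VSG against Sham-WM. They also hold Cyp2c70, which passed in Sham-WM against Sham-Ad lib. The 13 genes of subfamilies 2a, 2b, 2f, 2g, 2s and 2t lie on chr7:25802475-27158668, and 9 were tested. Of these, Cyp2b9, Cyp2b13 and Cyp2g1 passed in VSG against Sham-WM. Over all tested genes 26.9% passed in VSG against Sham-WM and 6.99% in Sham-WM against Sham-Ad lib. Within the cluster on chromosome 7 the calls in VSG against Sham-WM went in both directions, with Cyp2b9 and Cyp2b13 lower and Cyp2g1 higher. Of the 58 members 50 were found in the RefSeq promoter table, with 53 promoters. AGGTCA was in 19 of these (35.8%), beside 16.3% of all 32851 promoters of the same length. GCGTG was in 10 (18.9%, beside 32.4%), AGTTCA in 6 (11.3%, beside 14.0%) and TTCNNNGAA in 2 (3.77%, beside 8.30%). Copies share sequence, so the 53 are not independent, and a match is a description only.

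Sex-biased members were compared as lists. Of the members known as higher in female liver 7 of 10 were tested, and their median log2 fold changes were -1.67, 0.0037 and -1.63, for VSG and for Sham-WM with Sham-Ad lib as control, and for VSG set against Sham-WM. The first is the value of Cyp2b10 and rested on 6F, without which the median was -0.07, and the sign of the second changed with the library left out. In the last comparison 1 passed as higher (Cyp2g1, beside 15.0% of all genes) and 3 as lower (Cyp2b13, Cyp2b9 and Cyp2c40, beside 11.9%), 4 of 7 in all beside 26.9% of all genes, and with 1 library left out the number called ran from 1 to 4. In the other comparisons 0 passed by edgeR, with 2 and 1 at an unadjusted p under 0.05 and 1 and 1 by DESeq2. Their summed level per library was 54.1, 20.3, 345 and 14.5 CPM in Sham-Ad lib, 199, 173, 224 and 425 CPM in Sham-WM and 6.81, 12.7, 34.6 and 54.5 CPM in VSG, so all Sham-WM libraries were above all VSG libraries and 6F was high. Of the members known as higher in male liver 3 of 4 were tested, with medians of -0.14, -0.23 and 0.09. With 1 library left out the first ran from -0.46 (without 11F) to -0.04 (8F), the second from -0.40 (4F) to -0.15 (10F) and the last from -0.21 (11F) to 0.21 (8F), so its sign rested on 11F. By edgeR 0 of them passed in each comparison (1, 0 and 2 at an unadjusted p under 0.05, 0 by DESeq2 in each), and Cyp2j13 was at 0.

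Genes outside the 3 families with a known sex bias were placed beside these. Of 15 female-biased genes 9 were tested, with medians of -1.13, 0.10 and -1.29, and Sult3a2 was at 0. In VSG against Sham-WM 3 were lower, among them Cyp4a14 (-2.91) and Fmo2 (-1.29), and Cyp17a1 (1.23) was higher. Cyp17a1 was also the only one that passed in Sham-WM against Sham-Ad lib (-1.65), and in VSG against Sham-Ad lib 0 passed by edgeR (5 unadjusted, 2 by DESeq2). The Cyp17a1 call in VSG against Sham-WM was lost without 1F (adjusted p 0.06). The 15 male-biased genes had medians of -0.22, -0.998 and 0.56. Elovl3 (2.20) was higher in Sham-WM than in Sham-Ad lib, the only call of this list there by edgeR. In that comparison 5 had an unadjusted p under 0.05, DESeq2 called 4, and edgeR called 1 to 4 with 1 library left out. In VSG against Sham-WM Mup20 (2.04) and Ugt2b38 (2.03) were higher and Elovl3 (-2.83) lower, and in VSG against Sham-Ad lib 0 passed by edgeR (3 unadjusted, 1 by DESeq2). The call of Ugt2b38 was made in 6 of 12 fits that left out 1 library. Of 11 growth hormone signalling genes 10 were tested, with medians of -0.04, 0.26 and -0.23. Bcl6, a repressor of female-biased genes, was higher in VSG than in Sham-WM (2.33) and Onecut1 lower (-1.91), and Stat5a (0.43) was higher in Sham-WM than in Sham-Ad lib, in 4 of 12 fits that left out 1 library. In VSG against Sham-Ad lib 0 passed by edgeR (1 unadjusted, 0 by DESeq2). The part of these genes in the member changes was not tested.

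The regulators of P450 genes were mostly near 0. Ahr had log2 fold changes of -0.08, 0.12 and -0.20 in the 3 comparisons in the same order (adjusted p 0.867, 0.844 and 0.586), Nr1i2 had -0.12, -0.02 and -0.10 (0.577, 0.956 and 0.573) and Nr1i3 had 0.06, -0.07 and 0.13 (0.931, 0.942 and 0.808). Of the 17 regulators, all tested, 0 passed in VSG against Sham-Ad lib by edgeR (4 unadjusted, 2 by DESeq2). Esr1 (1.07) and Foxa2 (1.00) were higher in Sham-WM than in Sham-Ad lib, the former in 5 of 12 fits that left out 1 library (adjusted p up to 0.125) and the latter in all 12. By edgeR 4 were lower in VSG than in Sham-WM (beside 11.9% of all genes), among them Esr1 (-1.15, in all 12 fits) and Foxa2 (-0.61, in 10). The medians were -0.08, -0.02 and -0.18. With 1 library left out, the count of regulators called in VSG against Sham-WM ran from 2 to 5, and that in Sham-WM against Sham-Ad lib from 1 to 2.

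Por supplies the electrons of all these enzymes. Por stood at 561 ± 117 CPM in Sham-Ad lib, 319 ± 44.4 CPM in Sham-WM and 482 ± 114.96 CPM in VSG. It was lower in Sham-WM than in Sham-Ad lib (-0.81, SE 0.19, adjusted p 0.0212) and higher in VSG than in Sham-WM (0.59, adjusted p 0.0340), the direction opposite to that of the Cyp2b and Cyp2c members that passed. The first call was lost without 10F, 6F, 15F or 16F and the second without 15F, 16F, 2F, 11F or 8F, with adjusted p-values up to 0.0791 and 0.105. Alas1, which starts heme synthesis, had -0.24, -0.53 and 0.29 (adjusted p 0.790, 0.587 and 0.685). Among the 14 electron donor and heme genes, all tested, Cyb5b was the only other that passed in a comparison with Sham-Ad lib by edgeR (-0.76 in VSG). That call was made in 4 of 12 fits that left out 1 library (adjusted p up to 0.155), over which the list had 0 to 3 calls, beside 5 at an unadjusted p under 0.05 and 3 by DESeq2. In VSG against Sham-WM Hmox1 (1.78), Por and Uros (0.53) were higher (beside 15.0% of all genes), and Cyb5b (-1.13) and Cpox (-0.62) lower (beside 11.9%). The Uros call was made in 7 of 12 fits that left out 1 library (adjusted p up to 0.0977), over which the list had 3 to 6 calls. The medians of the list were 0.04, 0.01 and 0.11.

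Other targets of the same receptors were counted too. Of 15 tested CAR and PXR targets (of 17) 4 were lower in VSG than in Sham-WM and 0 higher. Over all genes 11.9% were lower, and 26.9% passed in either direction. The 4 included Gsta2 (-1.42), Abcb1a (-1.07) and Ugt2b34 (-0.57), and the count ran from 1 to 6 with 1 library left out. Over these 12 fits Gsta2 was called in 7, Abcb1a in 8 and Ugt2b34 in 4. Gstm1 (-0.56), the remaining gene that passed, was called in all 12. In VSG and in Sham-WM against Sham-Ad lib 0 passed by edgeR (3 and 0 unadjusted, 2 and 0 by DESeq2), and the medians were -0.38, 0.18 and -0.51. Of 5 tested Ahr targets (of 7) 0 passed in each comparison by edgeR (0, 2 and 1 unadjusted, 0, 0 and 1 by DESeq2), with medians of 0.07, -0.08 and 0.15. Pericentral genes, the zone of Cyp2e1 and Cyp1a2, had medians of 0.14, 0.06 and 0.13 over 12 genes. Slc13a3 (1.08), Slc1a2 (0.91) and Rhbg (0.89) were higher in VSG than in Sham-WM (Rhbg in 6 of 12 fits that left out 1 library, with adjusted p up to 0.105), Slc1a2 (-0.75) was lower in Sham-WM than in Sham-Ad lib, and in VSG against Sham-Ad lib 0 passed by edgeR (1 unadjusted, 1 by DESeq2). Periportal genes, the zone of Cyp2f2, had medians of -0.10, -0.10 and 0.22 over 12 genes. Cyp17a1 passed as given above, Cps1 (-0.83) was lower in VSG than in Sham-WM, and in VSG against Sham-Ad lib 0 passed by edgeR (0 unadjusted, 0 by DESeq2).

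Acute phase genes differed between the groups as well. Of 24 genes, all tested, 20 were higher in VSG than in Sham-WM and 0 lower (21 in all at an unadjusted p under 0.05, 21 by DESeq2), led by Saa2 (7.81), Mt2 (7.75) and Orm2 (6.61). In Sham-WM against Sham-Ad lib 4 were lower, led by Mt2 (-6.27), Saa2 (-6.01) and Saa1 (-4.64), and in VSG against Sham-Ad lib 1 was higher (Orm3, 2.95), with 15 at an unadjusted p and 8 by DESeq2. The counts with 1 library left out were 17 to 21 in VSG against Sham-WM, 2 to 5 in Sham-WM against Sham-Ad lib and 0 to 10 in VSG against Sham-Ad lib. Of the single calls against Sham-Ad lib, Orm3 was kept in 3, Saa1 in 4, Saa2 in 7 and Mt2 in all of 12 such fits. The medians were 1.13, -0.82 and 2.09. Hpx had the highest mean CPM over the 12 libraries, no gene of the list was at 0 in all libraries, and the summed level was 20684, 20678, 19019 and 18409 CPM in Sham-WM (2F, 9F, 15F, 16F), beside the values of the other groups given above. In Sham-Ad lib, 4F and 10F had the higher acute phase sums and, with 12.8 and 8.78 CPM, the lower Cyp2b9 levels, while 3F and 6F had the lower sums and 45.4 and 305 CPM. In VSG, 18F had the lowest acute phase sum and the highest Cyp2b9 level, and 1F the highest sum and the lowest level, while 11F had a higher sum than 8F and the higher Cyp2b9 level of the pair (28.2 beside 7.56 CPM). Cyp3a11 did not follow this order in Sham-Ad lib, where 4F was highest. The part of the acute phase genes in the member changes was not tested.

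Markers of immune cells also moved. Of 8 neutrophil markers 7 were tested, and 7 were higher in VSG than in Sham-WM and 6 higher in VSG than in Sham-Ad lib, led by Camp (11.62 and 7.71), Mpo (10.63 in VSG against Sham-WM), S100a9 (7.71 and 6.31) and S100a8 (6.27 in VSG against Sham-Ad lib), with medians of 5.65, -1.40 and 7.17. Camp was at 0 CPM in every Sham-WM library and at most 0.376 CPM in Sham-Ad lib, and Mpo was at most 0.051 CPM in Sham-WM. The sizes of these log2 fold changes of Camp and Mpo are therefore uncertain. S100a9 had the highest mean CPM, Ly6g was at 0 in both sham groups, and the summed level was 0.893, 14.8, 0.649 and 2.26 CPM in Sham-Ad lib, 2.70, 1.64, 1.89 and 1.58 CPM in Sham-WM and 777, 320.2, 118 and 24.1 CPM in VSG. Of 10 Kupffer cell and macrophage markers, all tested, 8 were higher in VSG than in Sham-WM, led by Lyz2 (3.02), Adgre1 (2.25) and Cd5l (2.17), and 2 in VSG than in Sham-Ad lib (Vsig4, 1.72, and Clec4f, 1.44), with medians of 1.48, -0.30 and 1.90. Cd5l had the highest mean CPM, and the sums were 166, 524, 218 and 185 CPM in Sham-Ad lib, 236, 187, 247 and 148 CPM in Sham-WM and 1538, 796, 734 and 564 CPM in VSG. In both lists 1F was highest and 18F lowest of the VSG libraries, and 4F was highest in Sham-Ad lib. Of 9 tested B, plasma, T and NK cell markers (of 10) 7 were higher in VSG than in Sham-WM, led by Jchain (3.00), Nkg7 (2.01) and Ighm (1.95), and 1 in VSG than in Sham-Ad lib (Jchain, 2.77), with medians of 1.14, -0.22 and 1.26. With 1 library left out these counts ran from 4 to 7 and from 0 to 3 (with all libraries 7 unadjusted and 2 by DESeq2 in the latter), and Jchain passed against Sham-Ad lib in 4 of 12 fits. In Sham-WM against Sham-Ad lib these 3 lists had 0 calls each by edgeR (0 unadjusted and 0 by DESeq2 in each). The calls in VSG against Sham-WM held at 7 of 7 neutrophil and 8 of 8 Kupffer cell and macrophage counts in every fit that left out 1 library, while those in VSG against Sham-Ad lib ran from 0 to 7 and from 0 to 8 (with all libraries 7 and 8 unadjusted, 7 and 7 by DESeq2). The part of these cells in the member changes was not tested.

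Markers of the remaining cell types were counted in the same way. Of the 8 hepatocyte markers Alb (-0.73) was lower in VSG than in Sham-WM, in 6 of 12 fits that left out 1 library, with list medians of -0.19, 0.02 and -0.15. Against Sham-Ad lib 0 hepatocyte markers passed by edgeR in VSG (1 unadjusted, 0 by DESeq2) and 0 in Sham-WM (1 unadjusted, 1 by DESeq2). Of 7 sinusoidal endothelial cell markers Kdr (-0.89) was lower in VSG than in Sham-WM (medians 0.19, 0.22 and -0.04), and of 8 stellate cell markers Acta2 (-1.39), Lrat (-1.33) and Reln (-1.06) were lower and Rgs5 (0.48) higher, with Lrat (0.82) higher in Sham-WM than in Sham-Ad lib (medians -0.36, -0.09 and -0.17). The calls of Acta2, Rgs5 and of Lrat against Sham-Ad lib were made in 8, 9 and 5 of 12 fits that left out 1 library. Of 5 tested cholangiocyte markers (of 6) 0 passed by edgeR in each comparison (0, 0 and 2 unadjusted, 0, 0 and 2 by DESeq2, medians -0.29, -0.06 and -0.23). In the adipocyte list Cfd was lower in VSG (-2.87) and in Sham-WM (-4.44) than in Sham-Ad lib and Car3 (-1.35) lower in VSG than in Sham-WM (medians -1.86, -1.97 and 0.11). The Cfd call was made in 4 of 12 such fits in VSG and in all in Sham-WM. The 2 tested pancreas and gut genes had medians of -0.20, 0.02 and -0.23. Of 6 red blood cell markers 0 passed by edgeR in each comparison (0, 1 and 1 unadjusted, 0, 1 and 0 by DESeq2, medians 0.19, -0.84 and 1.04). Of the 4 tested genes of the sex check 0 passed by edgeR in each comparison (1, 0 and 2 unadjusted, 0, 0 and 1 by DESeq2, medians -0.24, 0.01 and -0.27).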

How the data were processed

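Liver RNA of 12 mice, 4 per group, was measured. The deposited table holds raw read counts per gene (unit: count), which the authors made with TopHat2 2.1.1 and featureCounts on mm10. Identifiers were matched to GENCODE M21. Members and gene lists were chosen with earlier results of these data known. Genes were filtered with filterByExpr (minimum count 10, minimum total 15), scaled with TMM and fitted over all 12 libraries with the quasi-likelihood test of edgeR 4.0.16 (limma 3.58.1, R 4.3.3), with Benjamini-Hochberg adjustment and a threshold of 0.05. Log2 CPM used a prior count of 2, and the limit of detection is 3 counts. Library totals ran from 15122520 to 19384076. Every member past the threshold is named. Values per library are given for the 3 with the largest change per comparison and direction where log2 CPM averaged 1 or more, and for the member of the main subfamilies with the highest mean CPM; Cyp2b13, Cyp2c40 and Cyp2g1 were added after their values were seen. From each list up to 3 genes per direction past the threshold are named, with Ahr, Nr1i2, Nr1i3, Por and Alas1 always. Gstm1 was added after its values were seen. Alternatives were DESeq2 1.42.0, other scalings, filters and libraries, 2 RUVr factors, an unadjusted p, grouping by the description field, and leaving out each library. Protein sequences were not analysed here.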

Additional observations from a re-analysis of the deposited data

Results flagged for a closer look

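In 5 of 42 groups of 4 libraries examined, 1 library lay far from the others, by a gap that took up more of the group's range than Dixon's critical value for 4 allows. Chance flags about 1 in 20 groups. Cyp2b9 in Sham-Ad lib had 305 CPM in library 6F, with the others between 8.78 and 45.4 CPM. Cyp2b13 in Sham-Ad lib had 25.8 CPM in the same library 6F, with the others between 0 and 0.322 CPM. Cyp2b9 in Sham-WM had 395 CPM in library 16F, with the others between 168 and 205 CPM. Cyp2c68 in Sham-Ad lib had 84.8 CPM in library 4F, with the others between 156 and 157 CPM. Cyp2c70 in Sham-Ad lib had 378 CPM in library 10F, with the others between 204 and 233 CPM.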

How the results depend on the processing

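In VSG against Sham-Ad lib 0 members passed with the processing used, and the count was 7 at an unadjusted p under 0.05 (17.9%, beside 24.1% of all genes), 3 by DESeq2 (7.89%, beside 9.21%), 1 with no filter on low counts (2.00%, beside 2.72%) and 4 with 2 RUVr factors (10.3%, beside 23.1%); it ran from 0 to 2 with each library left out in turn (2 of 40 without 4F, beside 6.82% of all genes). In Sham-WM against Sham-Ad lib 1 passed, and the count was 4 at an unadjusted p (10.3%, beside 21.6%), 2 by DESeq2 (5.26%, beside 11.1%), 8 with RUVr factors (20.5%, beside 16.8%) and 0 with libraries mapped by the description field, and 0 to 1 with each library left out (0 without 3F, beside 4.08% of all genes, and without 16F, beside 3.19%; 1 in the other fits, beside 3.36% to 9.89%). In VSG against Sham-WM 6 passed, and the count was 14 at an unadjusted p (35.9%, beside 40.4%), 8 by DESeq2 (21.1%, beside 31.3%), 9 with no filter (18.0% of 50, beside 14.3% of all genes), 3 with at least 10 counts in every library (9.68%, beside 27.4%), 13 with RUVr factors (33.3%, beside 42.1%) and 0 by the description field, and 1 to 8 with each library left out (1 without 8F, 2.50% beside 25.7% of all genes, 2 without 16F, 5.13% beside 16.5%, 3 without 15F, 7.50% beside 16.8%, and 8 of 40 without 4F, beside 26.3%). Leaving out 11F or 1F gave 4 each (10.3%, beside 23.4% and 18.0% of all genes). The other settings gave 5 to 7. By the description field edgeR had 0, 1 and 0 members at an unadjusted p under 0.05 in the 3 comparisons. The median over the members moved by less than 1 SD between libraries (0.40) in each setting. That SD is larger than the size of the medians themselves (-0.22, 0.0053 and -0.24). A median could thus lose its sign and still meet this limit, which says little about how stable it was.

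By the description field 2 changes reversed, Cyp2c70 in Sham-WM against Sham-Ad lib (-0.49) and Cyp2c68 in VSG against Sham-WM (0.18), by the construction of that grouping, which moves 8 libraries. The median of the members changed its sign as well, to 0.02 in VSG against Sham-WM and to -0.30 in Sham-WM against Sham-Ad lib. Of the other values, 805 kept their direction and side of the threshold, moved by less than the spread or were counts that changed by at most 1.5-fold, 39 no longer passed or were counts that fell, 33 newly passed or were counts that rose, and 33 changed sign without a call. A stricter filter tests fewer genes with few counts; the cause of the other differences was not tested.

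With 4 mice per group, and Cyp2c40 and Cyp2g1 at no more than 34 counts in a library, counting error is large for these genes. Copies share sequence, and how reads matching several genes were counted is not known here.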
